A study of Mus musculus with 4 samples.

Results

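The 5 genes described here encode the ligands BAFF (Tnfsf13b) and APRIL (Tnfsf13) and their receptors TACI (Tnfrsf13b), BAFF-R (Tnfrsf13c) and BCMA (Tnfrsf17). They were chosen by symbol, all 5 were among the 32285 genes of the count matrices, and each was measured in 4 single-cell RNA sequencing libraries of the colon. The mice drank 2% dextran sulfate sodium (DSS), a polymer that injures the gut lining, for 7 days, and each sample pooled the colons of 3 mice from 1 group, collected on day 8, from which CD45+ cells were enriched with magnetic beads. CD45 is the surface protein of leukocytes. The study compared wild-type with AhR-deficient mice (AhR is the aryl hydrocarbon receptor), but the sample labels used here give DSS treatment, an age of 10 weeks and a replicate number for each sample and no genotype. The age given with the study's schematic is 8 weeks. The names of the deposited files were not used as a source of genotype. No sample was therefore assigned to a genotype, no genotype was compared, and the samples are called 1 to 4. Each value is given per sample or as a range and median, and classes of cells were compared within a sample. A two-sided exact sign-flip test over 4 samples cannot give a p-value below 0.125, so none was run.

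BAFF and APRIL are trimeric ligands of the tumor necrosis factor family that keep B-lineage cells alive. BAFF-R binds BAFF alone and sustains mature B cells, TACI binds both ligands, and BCMA, whose stronger partner is APRIL, is known from plasma cells. In the gut these ligands are known for their part in IgA class switching and in the upkeep of IgA plasma cells, and the receptors signal through TRAF adaptors and the canonical and alternative NF-kappaB pathways.

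Positions are from GENCODE M21 on GRCm38. Tnfsf13b (ENSMUSG00000031497) spans chr8:10006467-10039072 on the plus strand, and Tnfrsf13b (ENSMUSG00000010142) spans chr11:61126755-61149372 on the plus strand. Tnfsf13 (ENSMUSG00000089669) spans chr11:69682846-69685784 on the minus strand, inside the read-through gene Tnfsfm13 (chr11:69682577-69696098), which joins Tnfsf12 to Tnfsf13 and was not a feature of the matrices. UMIs of Tnfsf13 could therefore not be told apart from those of the read-through transcript. Tnfrsf13c (ENSMUSG00000068105) spans chr15:82221743-82224369 on the minus strand, and Tnfrsf17 (ENSMUSG00000022496) spans chr16:11313812-11320074 on the plus strand.

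The 250 bases before the RefSeq start (GRCm38.p6) are shown for 3 genes with a high level in 1 class or lineage, namely Tnfsf13b, Tnfrsf13c and Tnfrsf17. Capitals mark matches, on either strand, to the letters ATGCAAAT (octamer), GGGANNTCC (kappaB), GAAANNGAA (paired interferon regulatory factor sites). They also mark GAGGAA, the core of ETS factor sites, and the TATA box letters TATAAA. The windows lie at chr8:10006217-10006466 (plus), chr15:82224381-82224630 (minus) and chr16:11313559-11313808 (plus).
Tnfsf13b: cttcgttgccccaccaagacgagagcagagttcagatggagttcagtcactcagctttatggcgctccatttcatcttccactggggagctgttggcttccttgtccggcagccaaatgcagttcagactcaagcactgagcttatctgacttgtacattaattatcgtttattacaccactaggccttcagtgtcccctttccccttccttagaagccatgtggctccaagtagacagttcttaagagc
Tnfrsf13c: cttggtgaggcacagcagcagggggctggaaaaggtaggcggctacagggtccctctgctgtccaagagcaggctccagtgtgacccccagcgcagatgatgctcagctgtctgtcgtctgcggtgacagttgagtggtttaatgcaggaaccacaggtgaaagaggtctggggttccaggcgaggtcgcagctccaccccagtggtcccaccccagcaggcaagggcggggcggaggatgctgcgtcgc
Tnfrsf17: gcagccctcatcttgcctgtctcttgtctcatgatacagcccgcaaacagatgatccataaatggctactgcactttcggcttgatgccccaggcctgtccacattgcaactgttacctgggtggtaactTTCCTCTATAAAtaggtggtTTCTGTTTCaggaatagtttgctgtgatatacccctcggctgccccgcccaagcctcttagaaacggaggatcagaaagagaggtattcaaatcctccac
The Tnfrsf17 window held 3 of the 5 motifs, with TTCCTC, the reverse complement of the ETS core, starting 120 bases before the start and directly followed by TATAAA at 114 bases, and TTCTGTTTC, which fits the paired site on the other strand, at 100 bases. The ETS core was present in 23.3% of 32851 promoter windows of the same length, TATAAA in 12.4% and the paired site in 7.13%, and none of these letters was found in the other 2 windows shown. A second RefSeq start of Tnfsf13b, whose window begins at chr8:10006383, had the paired site GAAAGTGAA on the plus strand 16 bases before it. The octamer was present in 1.60% of all windows and the kappaB letters in 3.59%. These matches describe the letters of a window only.

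The matrices held 45229 cells and 72509408 to 135516016 UMIs per sample. After filters on detected genes and mitochondrial UMIs 43432 cells were kept, of which 27816 fell into 1 marker-defined class, 10515 carried markers of 2 or more lineages and 5101 reached no class. Classes are named "-like" after their marker lists, every marker of each list was over 2 times the median of the other classes, and each class but the endothelial-like one had at least 1 own marker among its 10 leading genes (a single eosinophil-like cell was left aside). Cells were gated on these same lists, so the levels of the markers are not separate support for the class names. B-like cells numbered 2646, 2573, 310 and 389 in samples 1 to 4, and plasma-like cells 50, 259, 63 and 30. Monocyte/macrophage-like cells numbered 1423 to 2810 per sample, neutrophil-like cells 629 to 2212, T-like cells 857 to 2274 and fibroblast-like cells 67 to 350. Fibroblast-like cells are outside the labelled leukocytes, and Ptprc, which encodes CD45, was at 22.0 to 80.2 CPM in them and at 1187 to 1515 CPM in monocyte/macrophage-like cells. CPM is UMIs of a gene per 1000000 UMIs of the class in that sample, intervals are exact 95% Poisson or binomial intervals of counting error only, and CPM values were not compared between genes. Pairs of libraries shared 0.271 to 0.423% of cell barcodes, and Ahr was at 104 to 127 CPM over all cells in the 4 samples.

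BAFF transcripts were highest in fibroblast-like cells, in every sample. Tnfsf13b was at 222, 152, 133 and 104 CPM there in samples 1 to 4, from 202, 114, 417 and 125 UMIs. Monocyte/macrophage-like cells had 6.60, 10.8, 6.07 and 6.82 CPM, and neutrophil-like cells 7.82, 11.7, 8.75 and 5.04 CPM. The range of fibroblast-like cells did not overlap with that of either class. How many of all genes separate these classes in this way was not counted. The ratio of fibroblast-like to monocyte/macrophage-like cells was 33.7, 14, 21.9 and 15.3 in the order of samples, and the lower bounds of its intervals were 27.0, 10.6, 18.0 and 11.5. Of 5137 genes with at least 50 CPM in either class in a sample, 20.7% were at least 2-fold higher in fibroblast-like than in monocyte/macrophage-like cells in 4 of 4 samples, and Tnfsf13b, the 1 member above that filter, was among them. It reached 50 CPM in fibroblast-like cells only, so this call is not separate support. A Tnfsf13b UMI was present in 68.7%, 56.4%, 51.7% and 38.1% of fibroblast-like cells and in 3.52 to 5.76% of monocyte/macrophage-like cells. After each cell was thinned to 1000 UMIs the median share in fibroblast-like cells was 14.6%, against 54.1% before. The median share in monocyte/macrophage-like cells after the same thinning was 0.631%.

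Among leukocyte classes with over 50 cells per sample, monocyte/macrophage-like and neutrophil-like cells had the highest Tnfsf13b levels, except that ILC-like cells, at 5.68 CPM from 6 UMIs, were above neutrophil-like cells in sample 4. The ratio of neutrophil-like to monocyte/macrophage-like cells ran from 0.739 to 1.44, above 1 in 3 of 4 samples and with an interval above 1 in sample 3. B-like cells had 1.76 to 2.70 CPM and T-like cells 1.61 to 4.82 CPM, which overlap. Monocyte/macrophage-like cells were above B-like cells in 4 of 4 samples, by 2.45 to 4.38 times. These low levels were set beside 10 other genes that lead fibroblast-like cells: Tnfsf13b in monocyte/macrophage-like cells was 0.0297 to 0.0713 of its fibroblast-like level, and the median of the 10 genes was 0.000445 to 0.00147 of theirs. Leading genes, here and below, were picked from these same data, which favours low ratios in other classes. Whether other classes make these genes themselves was not tested, so comparisons with leading genes are descriptions only. Epithelial-like cells had 0 to 9.84 CPM, from 28 UMIs in 136 cells. Endothelial-like cells had no UMI, and a limit of 3 counts in their 15 to 69 cells per sample corresponds to 3.98 to 21.8 CPM (exact 95% upper bounds 4.89 to 26.8 CPM).

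**Figure D1:**
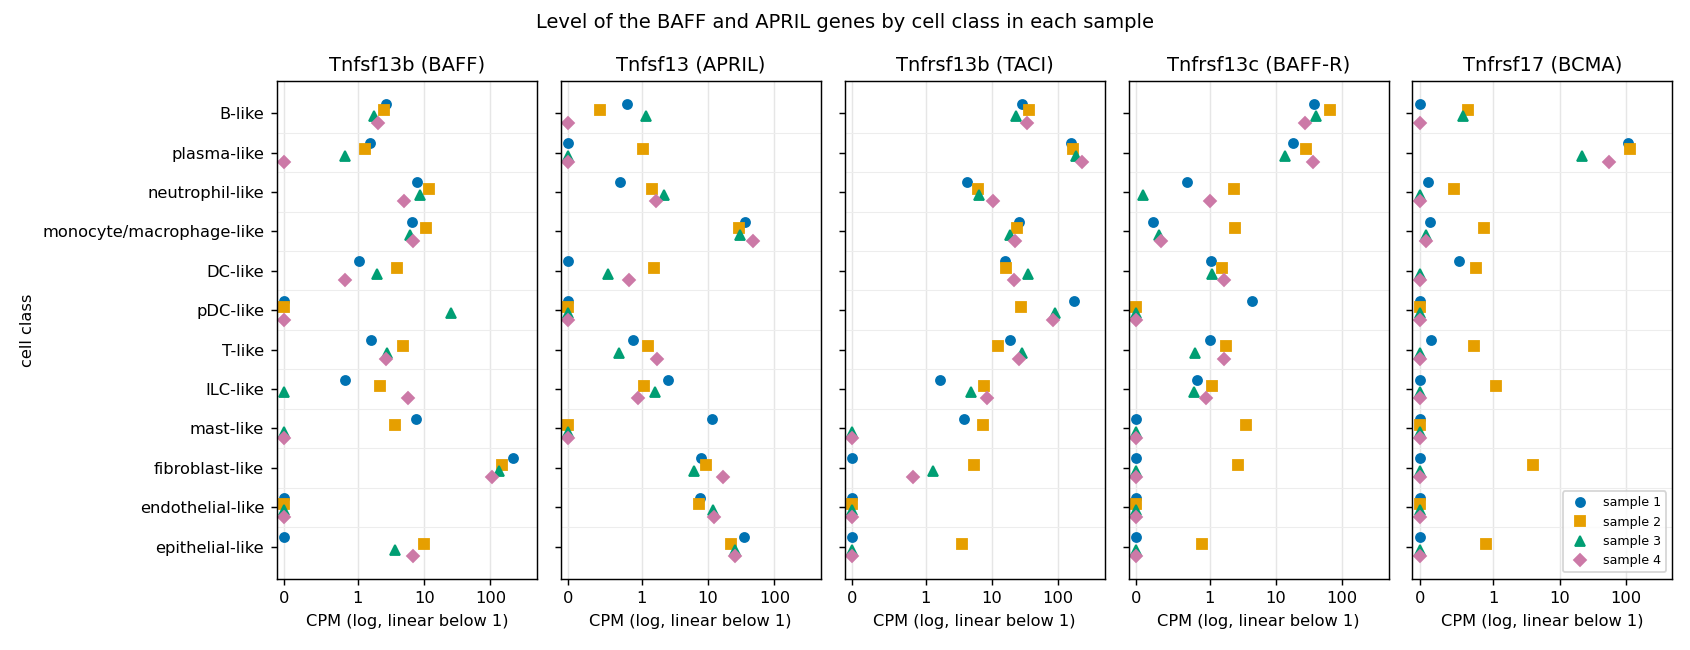
CPM of each gene (horizontal axis, logarithmic above 1 and linear below) in 12 cell classes (vertical axis), with 1 point per sample and no error bars. Tnfsf13b stands out in fibroblast-like cells (104 to 222 CPM), Tnfsf13 in monocyte/macrophage-like and epithelial-like cells, Tnfrsf13c in B-like and plasma-like cells and Tnfrsf17 in plasma-like cells (21.3 to 116 CPM), whereas Tnfrsf13b is spread over lymphoid and myeloid classes.

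Fibroblast-like cells differed among themselves. Cxcl13, which encodes the chemokine that draws B cells into follicles, was among their 10 leading genes, and cells with a Cxcl13 UMI had 295, 241, 159 and 156 CPM of Tnfsf13b against 78.6, 59.5, 66.8 and 48.7 CPM in cells without one. The groups do not overlap, and the ratio was 2.38 to 4.04 with an interval above 1 in 4 of 4 samples. How many of all genes separate these groups was not counted. This split was chosen after the data had been seen. The listed genes of the plasma cell niche and IgA switching include Cxcl12 (a chemokine that retains plasma cells), Il6 (a plasma cell survival cytokine), Aldh1a2 (retinoic acid synthesis) and Tslp (an epithelial and stromal cytokine). Of these 8 genes 4 were at least 2-fold higher in fibroblast-like than in monocyte/macrophage-like cells in 4 of 4 samples and 4 were lower. Cxcl12 was at 1078 to 1640 CPM in fibroblast-like cells against 0.802 to 2.02 CPM, Il6 at 351 to 433 against 8.96 to 58.5 CPM, Aldh1a2 at 30.1 to 51.9 against 0.236 to 1.20 CPM and Tslp at 9.91 to 17.5 against 0.283 to 0.655 CPM. The 4 lower genes were Il10, Tgfb1, Cxcr4 and Nos2. Cxcl12, Aldh1a2 and Tslp reached 10 CPM in fibroblast-like cells only, and Cxcr4 and Nos2 in monocyte/macrophage-like cells only. The calls of these genes are therefore not separate support. At this filter of 10 CPM, 21.4% of all genes tested were higher and 12.3% lower, and of the whole pathway list of 34 genes 30 were tested, 6 higher and 8 lower. The other 2 higher genes were Tnfrsf12a, the TWEAK receptor (51.8 to 113 against 13.2 to 16.8 CPM), and Icosl, the ICOS ligand (12.5 to 14.4 against 3.11 to 6.33 CPM). Icosl too reached 10 CPM in fibroblast-like cells only. Furin, a protease that releases both ligands from their precursors, was lower in fibroblast-like cells, at 71.8 to 110.2 against 213 to 261 CPM, as were Cd40, Rel and Bcl2l11. The members Tnfsf13 and Tnfrsf13b, the other 2 above 10 CPM, were called lower in fibroblast-like than in monocyte/macrophage-like cells. Of these, Tnfrsf13b reached 10 CPM in monocyte/macrophage-like cells only, so its call is not separate support.

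Within the monocyte/macrophage-like class, C1q-high macrophage-like cells had more Tnfsf13b than monocyte-like cells. The former had at least 4 of 8 markers, a list with complement C1q, Mrc1 and Cd163, so a cell need not carry each. The latter had at least 4 of 7 markers, a list with Ly6c2, Vcan and Ccr2. Outside these groups were 1297 cells with both marker sets (2.52 to 7.45 CPM of Tnfsf13b) and 476 with neither (5.56 to 7.999 CPM). The levels were 12.3, 16.6, 8.17 and 10.9 CPM in C1q-high cells and 3.50, 2.70, 5.33 and 3.06 CPM in monocyte-like cells. The ranges of C1q-high and monocyte-like cells do not overlap, but the share of all genes that separate them was not counted. The ratio of monocyte-like to C1q-high cells was 0.162 to 0.652 with an interval below 1 in 4 of 4 samples. Tnfsf13b was nevertheless not at least 2-fold higher in all 4 samples, and no member was called in this contrast, in which 4.47% of genes were called at the filter of 50 CPM with 1 member tested and 5.08% at the filter of 10 CPM with 3 tested.

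APRIL had another distribution. Tnfsf13 was highest in monocyte/macrophage-like cells, at 35.8, 28.9, 30.5 and 46.9 CPM, and in epithelial-like cells, at 34.6, 22.4, 25.6 and 25.6 CPM from 18 to 54 cells. Monocyte/macrophage-like cells were above epithelial-like cells in 4 of 4 samples, by 1.03 to 1.84 times, but the interval was above 1 in 1 sample only. Neutrophil-like cells had 0.700, 1.41, 2.16 and 1.64 CPM. The ratio of monocyte/macrophage-like to neutrophil-like cells was 51.2, 20.5, 14.1 and 28.6, and in no sample did the interval reach below 6.95. With cells of mixed markers put in their highest class the median ratio fell from 24.6 to 4.55. At 50 CPM no member was tested in this contrast, in which 31.0% of genes were called. At 10 CPM 35.1% of genes were called, and so were Tnfsf13 and Tnfrsf13b among 3 members tested. Tnfsf13 reached 10 CPM in monocyte/macrophage-like cells only, so its call is not separate support. In B-like, DC-like and neutrophil-like cells the ratio of Tnfsf13 to its monocyte/macrophage-like level was above that of 10 other genes that lead monocyte/macrophage-like cells in at most 2 of 4 samples (22 UMIs in B-like cells where the ratio of those genes gives 23.0, and 43 in neutrophil-like cells where it gives 55.1). Fibroblast-like cells, at 7.71, 9.31, 6.07 and 16.7 CPM, endothelial-like cells, at 7.26 to 12.5 CPM, and epithelial-like cells were above it in 4 of 4 samples. ILC-like cells were above it in 4 of 4 samples too, from 7 UMIs where it gives 2.40, and T-like cells in 3 of 4, from 44 UMIs where it gives 27.2. A Tnfsf13 UMI was present in 16.3 to 23.9% of monocyte/macrophage-like cells and in 0 to 0.645% of B-like cells.

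C1q-high macrophage-like cells had 35.1, 29.3, 43.4 and 60.3 CPM of Tnfsf13 and monocyte-like cells 34.3, 28.9, 23.2 and 30.1 CPM. The ratio was 1.02 and 1.01 in samples 1 and 2, with intervals that include 1, and 1.87 and 2.0 in samples 3 and 4, with intervals above 1. The neighbouring gene Tnfsf12, which encodes TWEAK and supplies the first part of the read-through transcript, was at 20.8 to 28.7 CPM in monocyte/macrophage-like cells and 0.350 to 0.939 CPM in neutrophil-like cells, and at 32.8 to 44.2 CPM in C1q-high against 8.93 to 13.6 CPM in monocyte-like cells. Over the pathway list, 28 of 34 genes were tested between monocyte/macrophage-like and neutrophil-like cells, of which 7 were higher (Tnfsf12, Tnfrsf12a, Cd40, Traf5, Il6, Il10 and Tgfb1) and 2 lower (Bcl2l1 and Pim2), where 35.1% of all genes were higher and 8.01% lower. Tnfsf12, Tnfrsf12a, Cd40, Traf5 and Il6 reached 10 CPM in monocyte/macrophage-like cells only, and Pim2 in neutrophil-like cells only. The calls of these genes are not separate support. Between C1q-high and monocyte-like cells 26 of the listed genes were tested, Tnfsf12 and Traf5 were higher and Nos2 was lower, where 5.08% of all genes were higher and 2.10% lower.

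**Figure D2:**
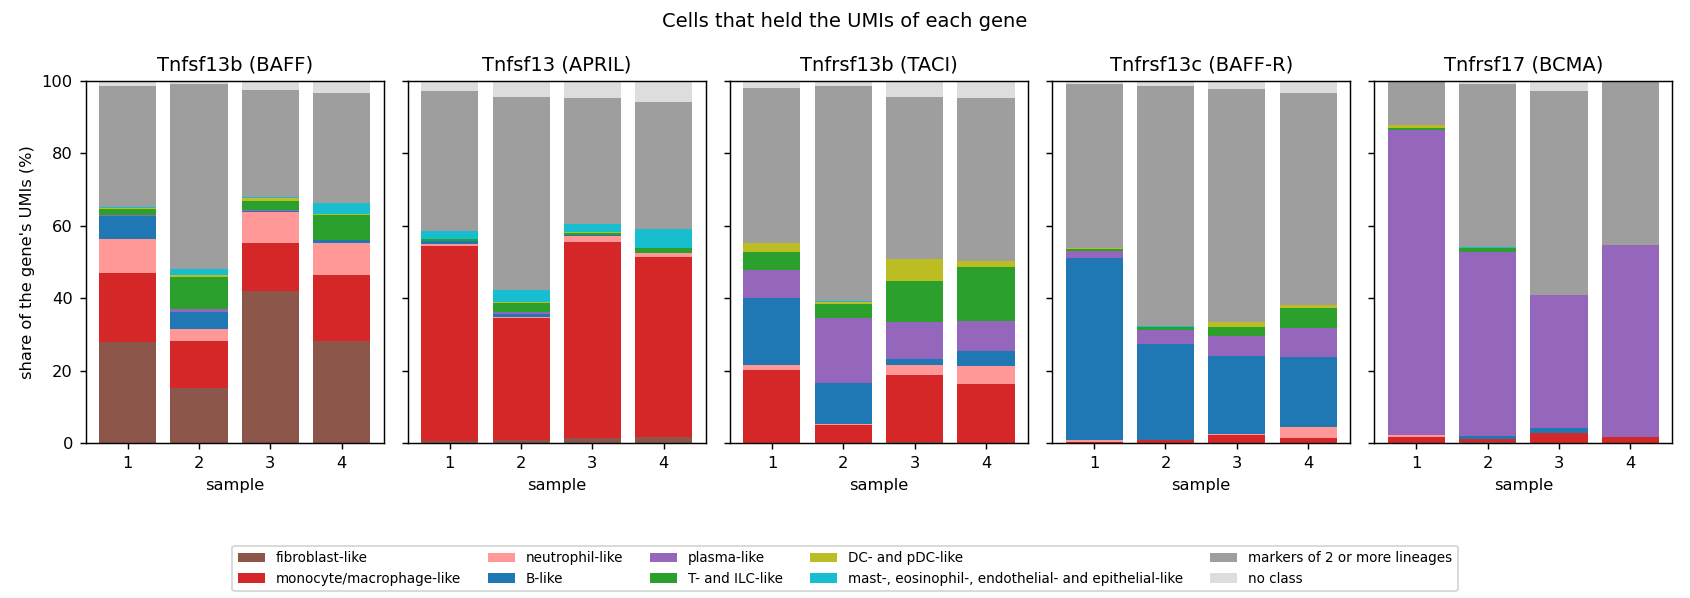
Share of each gene's UMIs (vertical axis, in percent, each bar summing to 100) held by each group of cells in samples 1 to 4, with no error bars. Plasma-like cells held 36.6 to 84.2% of Tnfrsf17 UMIs, monocyte/macrophage-like cells 33.7 to 54.1% of Tnfsf13 UMIs and fibroblast-like cells 15.1 to 41.9% of Tnfsf13b UMIs, and cells with markers of 2 or more lineages held much of the rest.

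Although they were 0.590 to 3.14% of kept cells, fibroblast-like cells held a median of 28.0% of Tnfsf13b UMIs, monocyte/macrophage-like cells 15.8% and neutrophil-like cells 8.77%. Cells with markers of 2 or more lineages held a median of 31.9%, and more than fibroblast-like cells in samples 1, 2 and 4. Over all kept cells Tnfsf13b was at 6.43, 5.62, 9.87 and 6.24 CPM, and sample 3, which had the most fibroblast-like cells, was the highest. Tnfsf13 was at 12.5, 5.87, 12.4 and 15.8 CPM over all kept cells, lowest in sample 2. Fibroblast-like cells were 0.610%, 0.590%, 3.14% and 1.82% of kept cells and monocyte/macrophage-like cells 21.1%, 10.8%, 25.2% and 22.1%. Sample 3 had the largest share of fibroblast-like cells, with a lower Tnfsf13b level within them than samples 1 and 2. Sample 2 had the smallest share of monocyte/macrophage-like cells. The levels did not follow these shares in every sample. Sample 4 had a larger share of fibroblast-like cells than sample 1 but not a higher Tnfsf13b level (6.24 against 6.43 CPM). Sample 4 also had the highest Tnfsf13 level, with a smaller share of monocyte/macrophage-like cells than sample 3. The part of cell shares in these levels was not tested.

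Among the receptors, TACI was the most widely detected. Tnfrsf13b was at 153, 168, 184 and 228 CPM in plasma-like cells and at 28.3, 36.6, 23.4 and 33.3 CPM in B-like cells. The ranges of the classes do not overlap, and how many of all genes are apart in this way was not counted. The ratio of plasma-like to B-like cells was 5.40, 4.58, 7.85 and 6.86 in the order of samples, with lower bounds of 4.57, 4.10, 5.59 and 5.07 and upper bounds of 6.38, 5.14, 11.3 and 9.35. Of 4418 genes tested at 50 CPM, 6.63% were at least 2-fold higher in plasma-like than in B-like cells in 4 of 4 samples, and of 3 members tested Tnfrsf13b and Tnfrsf17 were among them. Both reached 50 CPM in plasma-like cells only (B-like cells had at most 36.6 and 0.654 CPM), so these calls are not separate support. Immunoglobulin genes took 39.2 to 49.4% of plasma-like UMIs and 0.309 to 0.631% of B-like UMIs, which lowers the CPM of every other gene in plasma-like cells, and without immunoglobulin and mitochondrial UMIs the median ratio rose from 6.13 to 11. On that scale 53.4% of all calls were higher in plasma-like cells, against 12.1% with all UMIs. A Tnfrsf13b UMI was present in 88.0 to 95.2% of plasma-like cells and 11.9 to 15.0% of B-like cells. Plasma-like cells were deeper, with median UMIs of 17661 to 26256 against 3891 to 5170 in B-like cells, and when each cell was thinned to 1000 UMIs the median plasma-like share was 15.6% against 90.0% before. The median B-like share after the same thinning was 2.95%.

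Other classes had TACI levels near those of B-like cells. Monocyte/macrophage-like cells had 25.4, 24.2, 18.6 and 22.5 CPM, DC-like cells 15.9, 16.1, 34.8 and 21.6 CPM and T-like cells 18.5, 12.3, 27.9 and 26.0 CPM. These ranges overlap with each other and with B-like cells, although within a sample monocyte/macrophage-like cells were below B-like cells in 4 of 4 samples (0.662 to 0.897 times, with an interval below 1 in 2). Neutrophil-like cells had 4.2 to 10.3 CPM, and the ratio of monocyte/macrophage-like to neutrophil-like cells was 2.18 to 6.05 with an interval above 1 in 4 of 4 samples, while its median fell from 3.44 to 1.5 with cells of mixed markers put in their highest class. Fibroblast-like cells had 0 to 5.32 CPM, and endothelial-like cells had no UMI. Levels in the myeloid, DC-like and T-like classes were 0.0733 to 0.190 of the plasma-like level, except in neutrophil-like cells (0.0274 to 0.0453), while 10 other genes that lead plasma-like cells were at 0.000102 to 0.00697 of theirs. In pDC-like cells, a class of 8 to 24 cells per sample, Tnfrsf13b was at 174, 27.2, 88.1 and 83.1 CPM from 54 UMIs in all, and its ratio to B-like cells was above 1 in 3 of 4 samples.

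Within T-like cells Tnfrsf13b differed between subsets. Cells with a UMI of Foxp3, the transcription factor of regulatory T cells, had 48.5, 24.5, 43.5 and 44.7 CPM, whether or not they held Cd4. Cd4-positive cells without Foxp3 had 27.7, 19.8, 32.2 and 30.3 CPM and Cd8-positive cells had 8.79, 8.80, 7.97 and 6.70 CPM. Other T-like cells, without Foxp3 and with both or neither of Cd4 and Cd8, had 8.57 to 16.1 CPM. The Cd4-positive cells without Foxp3 did not overlap with the Cd8-positive cells, and their ratio was 2.25 to 4.52 with an interval above 1 in 4 of 4 samples. The share of all genes that separate these subsets was not counted. Foxp3-positive cells were above the Cd4-positive cells without Foxp3 in 4 of 4 samples, by 1.24 to 1.75 times, with an interval above 1 in 3, and the ranges over samples overlap. These subsets were chosen after the data had been seen. ILC-like cells had 1.66 to 8.52 CPM, below T-like cells in 4 of 4 samples and with an interval of the ratio above 1 in 3, although their gates need only 3 and 4 detected markers. Among DC-like cells, those with the markers of the Ccr7-positive state had 12.8, 13.3, 37.0 and 31.3 CPM, and the cDC1-like and cDC2-like cells had 5.34 to 15.6 and 11 to 21.8 CPM from 26 and 16 UMIs in all.

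**Figure D3:**
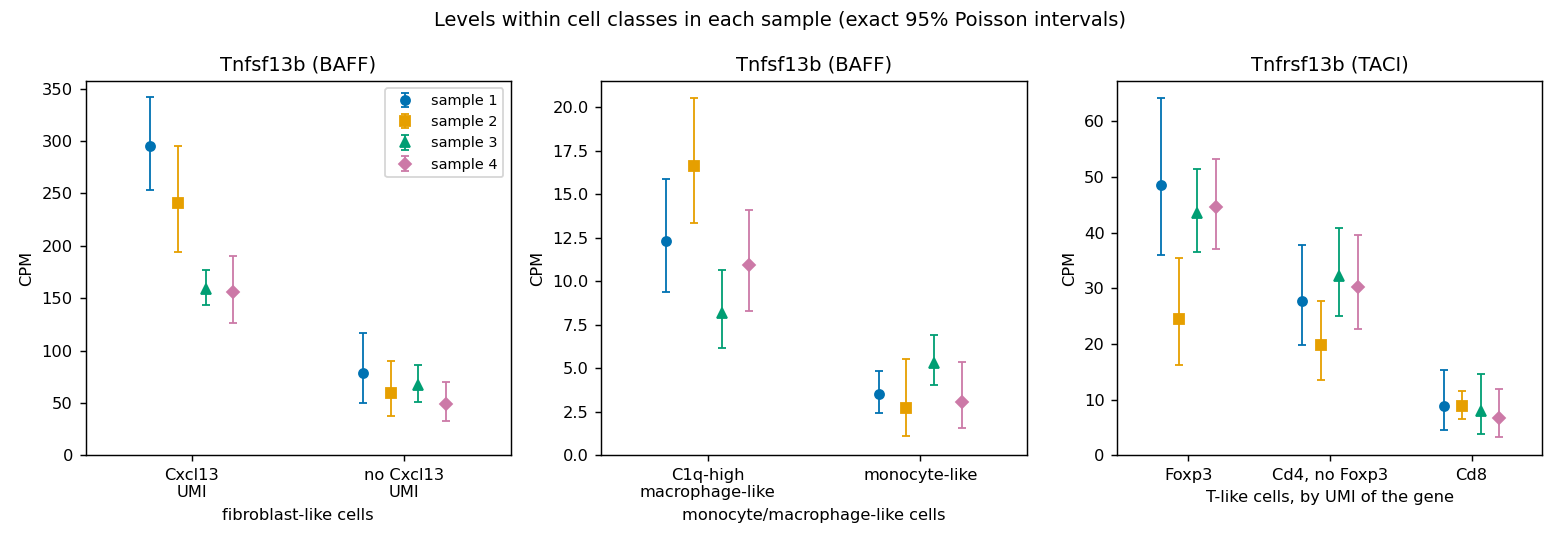
CPM (vertical axis, linear from 0) of Tnfsf13b in fibroblast-like cells with and without a Cxcl13 UMI and in C1q-high macrophage-like and monocyte-like cells, and of Tnfrsf13b in 3 subsets of T-like cells, with 1 point per sample and exact 95% Poisson intervals. The first group of each Tnfsf13b panel lies above the second in all 4 samples. Cd8-positive cells (6.70 to 8.80 CPM of Tnfrsf13b) lie below the Foxp3-positive cells and the Cd4-positive cells without Foxp3.

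Among the classes, BAFF-R transcripts were highest in B-like and plasma-like cells. B-like cells held 50.3%, 26.4%, 21.6% and 19.4% of Tnfrsf13c UMIs in samples 1 to 4. Cells with markers of 2 or more lineages, which are in no class, held 45.3%, 66.3%, 64.4% and 58.6%. Tnfrsf13c was at 38.0, 64.5, 39.8 and 27.2 CPM in B-like cells and at 18.1, 28.8, 13.9 and 36.9 CPM in plasma-like cells. B-like cells were higher in samples 1, 2 and 3, by 2.10, 2.24 and 2.85 times with intervals above 1, and sample 4 went the other way at 0.738 (0.442 to 1.27). Without immunoglobulin and mitochondrial UMIs the levels were 39.5, 67.3, 41.6 and 28.4 CPM in B-like cells against 37.3, 57.0, 27.9 and 63.6 CPM in plasma-like cells, and the median ratio fell from 2.17 to 1.12. The difference between these classes thus depended on the scale. Plasma-like cells that also reached the B-cell gate, 13, 110, 8 and 5 in number, had 35.1, 33.4, 18.2 and 63.5 CPM, and plasma-like cells below that gate had 11.5, 24.6, 13 and 29.8 CPM. T-like cells, at 0.805 to 1.78 CPM, were below B-like cells by a factor of 16.3 to 49.5, and over the 4 samples they held 53 Tnfrsf13c UMIs where the ratio of 10 other B-like leading genes gives 37.9. Neutrophil-like, monocyte/macrophage-like, ILC-like and DC-like cells had 0.103 to 2.40 CPM.

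Within B-like cells, germinal-centre-like cells had 82.9, 150.2, 216 and 45.3 CPM of Tnfrsf13c and follicular-like cells 37.0, 59.0, 39.2 and 28.9 CPM. The ratio was 2.24, 2.55 and 5.51 in samples 1 to 3, with intervals above 1, and 1.57 in sample 4 (0.185 to 5.99), where it rests on 2 germinal-centre-like cells, as it does on 3 in sample 3. Tnfrsf13b in germinal-centre-like cells was also above the follicular-like level in samples 1 to 3, with intervals above 1 in samples 1 and 2, at 51.3, 67.0, 53.9 and 22.7 CPM against 27.1, 34.2, 22.6 and 35.7 CPM. A UMI of both receptors was found in 105, 128, 11 and 9 B-like cells, where the product of the separate shares gives 75.4, 79.9, 5.13 and 6.15. Both shares rise with a cell's depth, and the part of depth in this was not tested. Over all kept cells Tnfrsf13c was at 11.6, 25.1, 3.13 and 3.90 CPM, and samples 3 and 4, with the fewest B-like cells, were lowest. Sample 1, with more B-like cells than sample 2, had a lower level than sample 2. The part of cell numbers in these levels was not tested.

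Among the classes, BCMA transcripts were highest in plasma-like cells. These held 84.2%, 50.9%, 36.6% and 53.2% of Tnfrsf17 UMIs in samples 1 to 4. Cells with markers of 2 or more lineages held 12.3%, 45.0%, 56.3% and 45.2%. Tnfrsf17 was at 109, 116, 21.3 and 55.4 CPM in plasma-like cells, from 144, 547, 26 and 33 UMIs. B-like cells held 0, 9, 1 and 0 UMIs in 2646, 2573, 310 and 389 cells. With 0 B-like UMIs set to a floor of 3 per library, the ratio of plasma-like to B-like cells was 631 in sample 1 and 36.6 in sample 4. The exact lower bounds of the ratio in these samples were 507 and 28.1. The ratio was 177 in sample 2 (92.7 to 390) and, from a single B-like UMI, 36.4 in sample 3 (5.99 to 1494). A Tnfrsf17 UMI was present in 84.0%, 74.1%, 27.0% and 40.0% of plasma-like cells, in samples 3 and 4 from 17 of 63 and 12 of 30 cells. Among the other classes the most UMIs over the 4 samples were 14 in monocyte/macrophage-like and 11 in T-like cells, where the ratio of 10 other plasma-like leading genes gives 9.38 and 8.74. In plasma-like cells below the B-cell gate Tnfrsf17 was at 117, 120, 24.0 and 66.0 CPM, in the same order over samples.

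**Figure D4:**
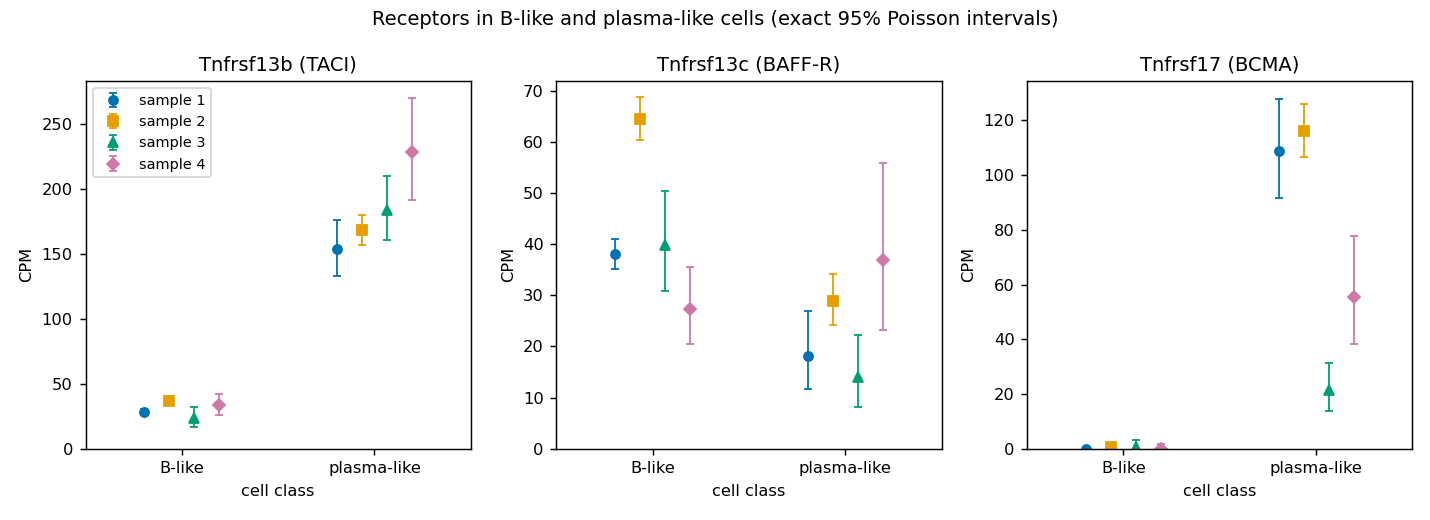
CPM (vertical axes, linear from 0, with a scale of their own) of the 3 receptors in B-like and plasma-like cells, with 1 point per sample and exact 95% Poisson intervals. Tnfrsf13b and Tnfrsf17 are higher in plasma-like cells in all 4 samples, while Tnfrsf13c is higher in B-like cells in samples 1 to 3 and not in sample 4.

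Most plasma-like cells expressed IgA. By their most abundant heavy chain, 98%, 95%, 84.1% and 70% were IgA cells in samples 1 to 4, and 1, 12, 10 and 8 were IgG cells. Tnfrsf17 was at 111, 121, 25.3 and 71.5 CPM in IgA cells and at 25.2, 18.3, 4.37 and 0 CPM in IgG cells, the latter from 1, 4, 1 and 0 UMIs. IgA cells were higher in each sample, and the interval of the ratio was above 1 in samples 2 and 4. For Tnfrsf13b the ratio of IgA to IgG cells was 2.06, 1.08, 1.06 and 0.603, with intervals that include 1 in samples 1 to 3 and lie below 1 in sample 4. Immunoglobulin genes took a mean of 48.8%, 47.8%, 51.2% and 40.9% of the UMIs of IgA cells in samples 1 to 4. In IgG cells the mean was 55.4%, 26.1%, 35.2% and 37.6%. The isotype ratios were not computed without immunoglobulin UMIs. The split by isotype was chosen after the data had been seen. In samples 1 to 4, 39, 171, 17 and 11 plasma-like cells had UMIs of both Tnfrsf13b and Tnfrsf17, and the products of their shares give 37.8, 169, 16.2 and 10.8. A Tnfrsf13b UMI was present in 88.0 to 95.2% of plasma-like cells, so these counts could depart little from the products. They do not tell whether the 2 transcripts go together.

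Of the 34 listed pathway genes 26 were tested between plasma-like and B-like cells at 10 CPM, 0 were higher and 12 were lower. Of all genes tested 6.01% were higher and 36.1% lower. Of the 13 signalling genes, all tested, 7 were lower. The 12 genes were Traf5 and Traf6 (adaptors), Birc3, Map3k14 (the kinase of alternative NF-kappaB signalling), Relb, Nfkb1 and Rel (NF-kappaB subunits), Cr2 and Fcer2a (mature B cell receptors), Cd40, Tgfb1 and Cxcr4. Of these, Cr2, Fcer2a and Cd40 reached 10 CPM in B-like cells only, so their calls are not separate support. Rel was at 54.2 to 116 CPM in plasma-like cells and 1298 to 1492 CPM in B-like cells, Birc3 at 56.6 to 82.3 and 482 to 614 CPM, and Map3k14 at 3.77 to 13.4 and 51.2 to 63.8 CPM. Mcl1, the survival factor that BCMA signals are known to maintain, was not called, with 225 to 297 CPM in plasma-like and 241 to 327 CPM in B-like cells. Without immunoglobulin and mitochondrial UMIs 10 genes were lower (all of these but Traf6 and Cxcr4) and Il10 was higher, while 9.90% of all genes were lower and 13.9% higher. The median log2 ratio of plasma-like to B-like cells over 4368 genes moved from -1.33 to -0.45 with that scale.

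In 7 classes every sample held 50 or more cells, and the genes whose median levels over them were most like each member are given as a description, with Pearson's r of log2(CPM + 1) over classes that share libraries. For Tnfsf13b they were Ereg, Has1, Ccdc80, Col15a1 and Acta2 (r = 0.984 to 0.989), and for Tnfsf13 Cmklr1, Mertk, Cacna1d, Msantd3 and Gpnmb (0.962 to 0.996). For Tnfrsf13b they were Csk, Vrk2, Ankfy1, Smchd1 and Hps3 (0.937 to 0.956) and for Tnfrsf13c Vpreb3, Fcer2a, Gm30211, Txndc16 and Ighm (0.970 to 0.985). Tnfrsf17 was near 0 in all 7 classes, which leave out plasma-like cells. With classes of at least 30 cells, chosen after the data had been seen, plasma-like cells entered and Iglv1, Ccr10, Igkv5-43, Sgpp2 and Igha were most like Tnfrsf17. The Tnfrsf13b list was then replaced by E330020D12Rik, Derl1, St8sia6, Rap1a and Edem1 (r = 0.871 to 0.897). Of the Tnfrsf13c list only Vpreb3 and Gm30211 stayed, and the lists of Tnfsf13b and Tnfsf13 changed in part.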

How the data were processed

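Single-cell libraries of 4 samples were prepared by the authors with 10x Genomics chemistry. The deposited matrices hold raw counts (UMIs) for the cells that the authors' software called. The matrix headers name Cell Ranger 7.0.1, whereas the submitters' processing notes list Cell Ranger 5.0.0, STAR, Seurat and mm10. Whether intronic reads were counted is not given in the sources used here. Cells with at least 200 genes and under 20% mitochondrial UMIs were kept. A cell entered a class when it had at least the minimum number of detected markers of that list (B 5 of 11, plasma 7 of 10, neutrophil 7 of 10, monocyte/macrophage 6 of 14, DC 5 of 16, T 4 of 11, fibroblast 4 of 7). The minima were set at dips of the marker counts, and 3351 classed cells lay exactly at one. Plasma-like cells may also carry B markers, and T-like cells ILC markers. Cells with markers of 2 or more lineages were left out. No doublet caller was run, and doublets were not measured. UMIs were summed per class and sample. Ratios have exact conditional binomial 95% intervals, and genes were called at a ratio of at least 2 in 4 of 4 samples. The named genes are the 5 members, those called of a pathway list of 34 genes and the 5 most similar genes per member. The members, lists and tests were chosen with earlier results of these data known. Every pair of samples differed beyond sampling noise. The chi-square per gene was 91.1 to 895. Scripts used Python 3.11.15, numpy 2.4.6, scipy 1.17.1 and pandas 2.3.3 and were tested on simulated data. Promoter windows are from RefSeq, where all 5 genes matched.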

Additional observations from a re-analysis of the deposited data

Results flagged for a closer look

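Cells with markers of 2 or more lineages entered no class, and the 5 genes had UMIs there in every sample. At the median of the 4 samples these cells held 31.9% of Tnfsf13b UMIs, 36.9% of Tnfsf13 UMIs, 44.9% of Tnfrsf13b UMIs, 61.5% of Tnfrsf13c UMIs and 45.1% of Tnfrsf17 UMIs. They were 20.1 to 31.8% of kept cells, with median UMIs of 14329 to 16940 per cell. B and T markers together were the most frequent combination in sample 2, with 1315 cells.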

How the results depend on the processing

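No paired analysis was possible because the labels put no sample in a group. Of 282 alternative values of 33 results, 249 moved by less than 1 SD over samples, or, for counts of genes, stayed within 1.5 times. The median levels of Tnfsf13b in fibroblast-like, Tnfsf13 in monocyte/macrophage-like and Tnfrsf13c in B-like cells were among them under each alternative run. The 282 values include medians with 1 sample left out, which always move by less than 1 SD of the 4 samples. Those medians could therefore not count as moved. Only ratios were checked for a turn of direction, and none turned. Without immunoglobulin and mitochondrial UMIs the median in plasma-like cells moved from 176 to 349.5 CPM for Tnfrsf13b and from 82.0 to 159.6 CPM for Tnfrsf17, the plasma-like to B-like ratio of Tnfrsf13b from 6.13 to 11 and the B-like to plasma-like ratio of Tnfrsf13c from 2.17 to 1.12. With cells of mixed markers put in their highest class, the monocyte/macrophage-like to neutrophil-like ratio of Tnfsf13 moved from 24.6 to 4.55 and the plasma-like to B-like ratio of Tnfrsf13b to 4.16, and likelihood classes moved the latter to 4.6. The causes were not tested. Leaving out each sample in turn gave medians of 133 to 152 CPM for Tnfsf13b in fibroblast-like cells, 30.5 to 35.8 for Tnfsf13 in monocyte/macrophage-like cells, 168 to 184 for Tnfrsf13b and 55.4 to 109 for Tnfrsf17 in plasma-like cells and 38.0 to 39.8 for Tnfrsf13c in B-like cells. The ratios were then 15.3 to 21.9 for Tnfsf13b, 20.5 to 28.6 for Tnfsf13, 5.40 to 6.86 for Tnfrsf13b and 2.10 to 2.24 for Tnfrsf13c. Thinning cells to 1000 UMIs moved the median shares of cells with a UMI from 54.1 to 14.6% (Tnfsf13b, fibroblast-like), 20.8 to 3.46% (Tnfsf13, monocyte/macrophage-like), 90.0 to 15.6% (Tnfrsf13b, plasma-like), 16.4 to 3.27% (Tnfrsf13c, B-like) and 57.1 to 7.71% (Tnfrsf17, plasma-like). Counts of genes higher in plasma-like than B-like cells went from 293 to 540 at a filter of 10 CPM, 153 at a ratio of 4 and 812 without immunoglobulin and mitochondrial UMIs, an alternative added after the data had been seen, and counts of lower genes from 2137 to 3241, 557 and 709, so that the higher share went from 12.1 to 53.4%. For monocyte/macrophage-like over neutrophil-like cells the higher count went from 1301 to 2876 at 10 CPM and 591 at a ratio of 4, and the lower count from 439 to 671 at a ratio of 1.5 and 196 at 4. For fibroblast-like over monocyte/macrophage-like cells the higher count went from 1065 to 2187 at 10 CPM and the lower from 896 to 499 at a ratio of 4. For C1q-high over monocyte-like cells the higher count went from 182 to 416 at 10 CPM, 372 at a ratio of 1.5 and 62 at 4, and the lower from 117 to 255 at 1.5 and 33 at 4. Small classes limit these data: 30 plasma-like cells in sample 4, 15 to 69 endothelial-like cells and 8 to 24 pDC-like cells per sample.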
